A study of Mus musculus with 7 samples.

Results

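Messenger RNA of 38 antioxidant and glutathione genes was examined in retinal pigment epithelium (RPE) of mice that lacked LC3b and of wild-type (WT) mice. The members were chosen by name: 3 superoxide dismutases, 5 glutathione peroxidases, the peroxiredoxins with sulfiredoxin, thioredoxins and glutaredoxins, enzymes of glutathione synthesis and use, *Keap1*, *Nfe2l2* and *Nqo1*, a pair of NADPH-supplying enzymes, a pair of methionine sulfoxide reductases, and the metallothioneins *Mt1* and *Mt2*. All 38 were found among the 52740 identifiers of the count table and all 38 were among the 16990 genes tested, with at least 104 counts in every library. The series holds 7 libraries, 1 per mouse: 4 WT mice (C57BL6/J; females F1, F2 and F3 and male M1) and 3 *LC3b-/-* mice (B6;129P2-Map1Lc3btm1Mrab/J, a constitutive knockout of the gene for LC3b; females F1 and F3 and male M), all 24 months old. The WT mice were purchased as C57BL6/J and are not described as littermates of the knockout, so strain background and the loss of LC3b cannot be told apart. Eyecups without cornea, ciliary body and lens were treated with hyaluronidase, the neural retina was pulled away, and RPE was released with trypsin and gentle dissociation.

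Superoxide dismutases turn superoxide into hydrogen peroxide, and glutathione peroxidases and peroxiredoxins reduce the peroxides to water or alcohols. The electrons come from glutathione and thioredoxin, which glutathione reductase and the thioredoxin reductases restore at the expense of NADPH. Many of these genes are switched on by the transcription factor Nrf2, which the adaptor protein of *Keap1* holds back under resting conditions. RPE takes up shed photoreceptor outer segments rich in polyunsaturated fatty acids under light and high oxygen, and LC3b is a ubiquitin-like protein of autophagy that is also placed on the phagosomes that hold these outer segments.

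The deposited estimated counts sum to 24495952 to 35616134 per library. The targeted gene *Map1lc3b* had 130.1, 117, 104 and 110.1 CPM in WT and 6.77, 8.33 and 6.76 CPM in *LC3b-/-* (log2 fold change -3.98, SE 0.15, adjusted p = 1.86e-04), so no library went against its genotype label. CPM are counts scaled to the total of each library and by TMM (trimmed mean of M-values) factors. Values in the libraries are always given in the order F1, F2, F3 and M1 for WT and F1, F3 and M for *LC3b-/-*. The labelled tissue was checked with 15 RPE markers, whose summed level was 33773 to 52218 CPM in WT and 15570 to 31485 CPM in *LC3b-/-*. All 3 *LC3b-/-* libraries lay below the 4 WT libraries in this sum, and 14 of the 15 markers were lower on average. *Best1*, a chloride channel of RPE, was near absent, at 1.27 CPM in WT and 1.45 CPM in *LC3b-/-* on average. Markers of ocular surface epithelium, mostly keratins, summed to 14.3 to 3334 CPM in WT and 3754 to 28716 CPM in *LC3b-/-*, with *LC3b-/-* F1 highest and 16 of 16 markers higher on average. Summed markers of endothelium also did not overlap between the groups, at 409 to 1318 CPM in WT and 1486 to 1755 CPM in *LC3b-/-*. Müller glia markers summed to 5792 to 6767 CPM in WT and 4994 to 5452 CPM in *LC3b-/-*, with 4 higher and 5 lower on average. This list shares *Rlbp1* with the RPE list, at 2399 to 3837 CPM in WT and 1065 to 2547 CPM in *LC3b-/-*. *Rlbp1* is a large part of the sum, so the sum is not a separate measure of Müller glia. Lens markers summed to 20.1 to 23.7 CPM in WT and 13.0 to 18.3 CPM in *LC3b-/-*. Photoreceptor markers ran from 276 to 21716 CPM in WT, with WT F2 highest, and from 98.6 to 7440 CPM in *LC3b-/-*. No gene of these 6 lists passed the edgeR test used below, and the part of these lists in the results below was not tested. With DESeq2 the paper reported *Rdh5* and *Slc16a8* of the RPE list as differentially expressed, and no significant change of *Rpe65* and *Best1*. In bulk RNA of this kind, fewer cells of a type and less RNA per cell cannot be told apart.

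**Figure D1:**
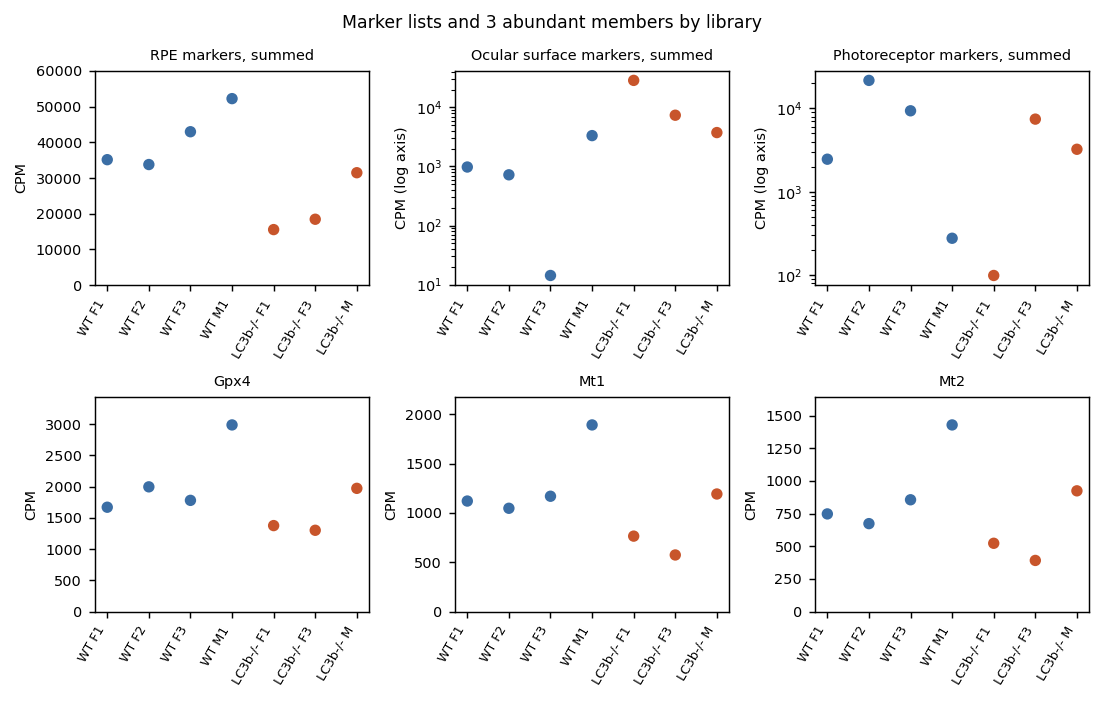
Summed level of RPE, ocular surface and photoreceptor markers (upper row) and level of *Gpx4*, *Mt1* and *Mt2* (lower row) in each of the 7 libraries, in CPM, with WT in blue and *LC3b-/-* in orange; the ocular surface and photoreceptor axes are logarithmic. RPE markers lie lower in all 3 *LC3b-/-* libraries, ocular surface markers lie higher in them, and WT M1 is the highest library for RPE markers and for all 3 members.

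Of the 38 members, 1 was differentially expressed by the criteria used here, an adjusted p under 0.05 in edgeR's quasi-likelihood test and a fold change of at least 1.5. This was *Ggt1*, which fell. It is 2.63% of the members, where 0.235% of all genes tested were called and 0.112% were called lower. At an unadjusted p under 0.05, 12 members stood out (31.6% of them), 5 higher and 7 lower, where 24.1% of all genes did, 13.5% higher and 10.6% lower. This count was 6 without WT M1, 5 without *LC3b-/-* F1 and 5 without *LC3b-/-* F3. In 8 members (21.1%) the libraries of the 2 genotypes did not overlap: *Prdx4*, *Txn1* and *Txnrd1* lay above WT, and *Sod1*, *Gpx8*, *Glrx2*, *Ggt1* and *Gstp1* lay below it. Groups did not overlap in 22.3% of all genes, 12.0% above and 10.3% below. The share of members whose groups did not overlap was thus near that of all genes.

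Small differences were spread over the group. The median log2 fold change of the members was -0.07, beside 0.01 over all genes, and 21 members (55.3%) were lower on average, beside 48.8% of all genes. In 31 members the difference was smaller than 1.5-fold. Between mice of a genotype the members varied with a median coefficient of variation of 14.0% in WT and 16.5% in *LC3b-/-*. *Txnrd2* was the steadiest in WT at 2.87% and *Nnt* the most variable at 43.1%.

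**Figure D2:**
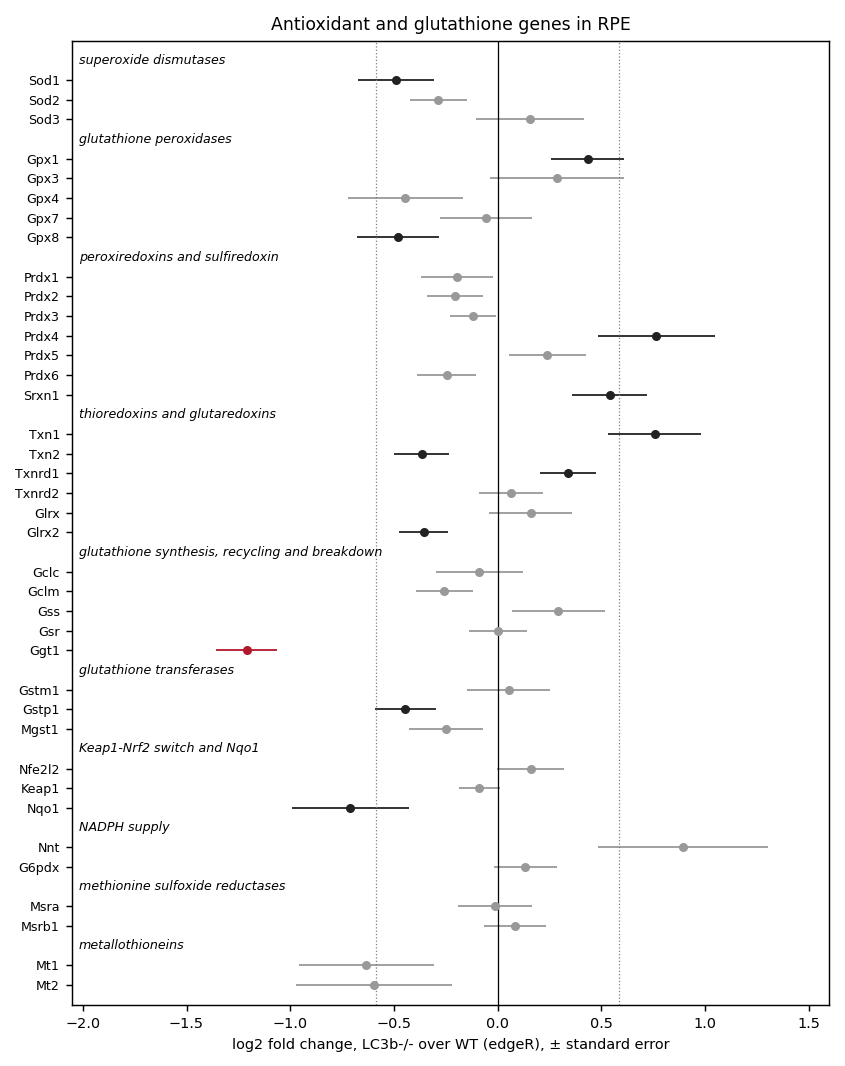
Log2 fold change of *LC3b-/-* over WT for the 38 members, grouped by role; points are edgeR estimates, bars are ± 1 standard error and dotted lines mark a 1.5-fold difference. Red marks *Ggt1*, called at an adjusted p of 0.0362, black marks the other members with an unadjusted p under 0.05, and grey marks the rest.

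Levels were compared between genes per kb of the canonical transcript, since CPM alone favours long transcripts. The lengths are those of the annotation, such as 5315 bases for *Sod1* and 7203 bases for *Srxn1*. Which transcripts the reads came from was not examined, so the place of a gene in this order depends on the length taken. *Gpx4* stood highest in WT RPE at 2199 ± 627 CPM per kb (SD, n = 4), followed by *Mt1* at 1715 ± 516 and *Mt2* at 1238 ± 459 CPM per kb. The ranges of these neighbours overlapped, so their order is not separated from the spread between mice. *Gpx3* came next at 242 ± 57 CPM per kb, and its range lay apart from that of *Mt2* above and that of *Gstp1* below (152 ± 17.0 CPM per kb). From *Gstp1* down through *Prdx5*, *Prdx6*, *Prdx1*, *Prdx2* and *Gpx1*, neighbouring ranges overlapped. *Msra*, *Nnt* and *Gpx7* were the lowest members, at 3.54 ± 0.597, 3.68 ± 1.58 and 3.68 ± 0.638 CPM per kb.

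Promoter sequence was available for 32 members in RefSeq windows of 250 bases before to 50 bases after a start site on GRCm38.p6. The antioxidant response element, the DNA element that Nrf2 binds, was searched with the letters TGACNNNGC on both strands. It was found in 12.4% of the 32851 promoter windows of the genome and in 12 of the 46 windows of the members (26.1%), which belong to 10 members. Stretches around 6 of these matches are shown because they cover members on both sides of the comparison: *Txnrd1*, which lay above WT, *Sod1* and *Ggt1*, which lay below, and *Prdx1* and *Gclm*, in which the groups overlapped. Capitals mark the match, all stretches are from the plus strand, and *Ggt1* has 2 of them from separate start sites. They lie at chr10:82859088-82859148 (*Txnrd1*), chr4:116685440-116685500 (*Prdx1*), chr3:122245397-122245457 (*Gclm*), chr16:90220680-90220740 (*Sod1*), and chr10:75568600-75568660 and chr10:75571451-75571511 (*Ggt1*), each upstream of its start site.
Txnrd1: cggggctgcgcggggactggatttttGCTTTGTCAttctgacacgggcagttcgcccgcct
Prdx1: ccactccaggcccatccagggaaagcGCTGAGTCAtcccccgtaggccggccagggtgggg
Gclm: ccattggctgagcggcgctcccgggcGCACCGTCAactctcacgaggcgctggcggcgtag
Sod1: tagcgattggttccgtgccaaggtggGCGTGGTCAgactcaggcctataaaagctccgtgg
Ggt1: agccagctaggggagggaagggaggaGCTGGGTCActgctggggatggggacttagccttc
Ggt1: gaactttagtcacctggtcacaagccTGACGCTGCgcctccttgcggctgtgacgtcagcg
The match of *Prdx1* also holds the letters TGAGTCA, which AP-1 factors are known to bind, and that of *Gclm* shares bases with a match of the metal response letters used below. *Mgst1*, *Nfe2l2*, *G6pdx*, *Mt2* and *Srxn1* held further matches, that of *Srxn1* 28 bases after its start. *Ggt1* held another match in a further window, 41 bases after the start site. A match is a description of the letters and not a binding site or a cause. The members with a match lay on both sides of WT, and no match was present in the windows of *Nqo1* and *Txn1*. Letters farther from the start site were not searched, so the absence of a match does not mean that a gene lacks the element.

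Among the superoxide dismutases, *Sod1*, the enzyme of the cytosol, had 322, 335, 337 and 417 CPM in WT and 233, 207 and 313 CPM in *LC3b-/-* (log2 fold change -0.49, SE 0.18, adjusted p = 0.172). All 3 *LC3b-/-* libraries lay below WT, *LC3b-/-* M by the smallest margin, and WT M1 stood above the other WT libraries. *Sod1* did not pass the test. *Sod2*, the mitochondrial enzyme, had 156, 149, 171 and 174 CPM in WT and 124, 119 and 157 CPM in *LC3b-/-*, and *LC3b-/-* M lay within the WT range. Its transcripts share stretches of at least 100 bases at 95% identity or more with 12 other genes of the table. Among these is the photoreceptor gene *Sag*, with 116428 counts against 31157 of *Sod2*, so part of the *Sod2* reads may be uncertain. *Sod3*, the secreted enzyme, spread widely, with 109 to 171 CPM in WT and 101 to 211 CPM in *LC3b-/-*, and the male library was the lowest of each genotype.

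The glutathione peroxidases lay on both sides of WT, with 2 of 5 higher and 3 lower on average. *Gpx1*, which reduces hydrogen peroxide in the cytosol and mitochondria, had 136, 116, 89.9 and 105 CPM in WT and 179, 133 and 140.0 CPM in *LC3b-/-* (log2 fold change 0.43, SE 0.18, adjusted p = 0.191). *LC3b-/-* F1 was the highest library and WT F3 the lowest, and *LC3b-/-* F3 lay just under WT F1, so the groups overlapped. Without *LC3b-/-* F1 the log2 fold change of *Gpx1* was 0.29. *Gpx8*, a peroxidase of the endoplasmic reticulum, had 35.4, 31.4, 33.8 and 32.1 CPM in WT and 30.1, 24.6 and 16.7 CPM in *LC3b-/-* (log2 fold change -0.48, SE 0.20, adjusted p = 0.193). The WT libraries were close together, all 3 *LC3b-/-* libraries lay below them, and *LC3b-/-* M was lowest. Without *LC3b-/-* M the log2 fold change of *Gpx8* was -0.28.

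*Gpx4*, the selenoenzyme that reduces lipid peroxides inside membranes, is given in full because of its level, chosen after its values were seen. It had 1670.2, 1997, 1780.1 and 2988 CPM in WT and 1376, 1301 and 1973 CPM in *LC3b-/-* (log2 fold change -0.44, SE 0.28, adjusted p = 0.361). WT M1 stood far above the other WT libraries and *LC3b-/-* M was nearly as high as WT F2, so the groups overlapped. Without WT M1 the log2 fold change was -0.23. *Gpx3*, the secreted plasma form, ranged over 504 to 897 CPM in WT and 484 to 1185 CPM in *LC3b-/-*, with the male library lowest in each genotype. *Gpx7*, another peroxidase of the endoplasmic reticulum, was low in all libraries, at 3.89 to 5.76 CPM in WT and 4.16 to 5.11 CPM in *LC3b-/-*.

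Of the peroxiredoxins, thiol peroxidases that thioredoxin recharges, only *Prdx4* separated the genotypes without overlap. *Prdx4*, the member of the secretory pathway, had 13.0, 9.57, 5.50 and 7.30 CPM in WT and 15.9, 14.0 and 15.2 CPM in *LC3b-/-* (log2 fold change 0.77, SE 0.28, adjusted p = 0.166). The *LC3b-/-* libraries were close together and above every WT library, while WT F3 held less than the other WT libraries. It did not pass the test. The abundant *Prdx1*, *Prdx2*, *Prdx5* and *Prdx6* had WT means of 313, 248, 228 and 365 CPM and overlapped between genotypes. Mitochondrial *Prdx3* did so too, at 42.2 to 50.9 CPM in WT and 38.9 to 45.2 CPM in *LC3b-/-*. *Prdx5* was highest in *LC3b-/-* F1, at 345 CPM, where the other 6 libraries held 205 to 262 CPM.

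*Srxn1*, sulfiredoxin, repairs peroxiredoxins whose active cysteine has been overoxidized, and is a classical Nrf2 target. It had 38.2, 30.0, 24.5 and 25.6 CPM in WT and 42.5, 37.9 and 48.6 CPM in *LC3b-/-* (log2 fold change 0.54, SE 0.18, adjusted p = 0.144). *LC3b-/-* M was highest, and the groups overlapped because WT F1 stood slightly above *LC3b-/-* F3.

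Cytosolic and mitochondrial thioredoxin differed from WT in opposite directions on average. *Txn1*, cytosolic thioredoxin, had 57.3, 46.4, 38.2 and 58.5 CPM in WT and 112, 65.4 and 76.5 CPM in *LC3b-/-* (log2 fold change 0.76, SE 0.23, adjusted p = 0.120). All *LC3b-/-* libraries were above WT, and *LC3b-/-* F1, the library with the most ocular surface markers, was by far the highest. Without *LC3b-/-* F1 the log2 fold change of *Txn1* was 0.50. *Txnrd1*, the cytosolic reductase that restores it, had 107, 78.3, 85.7 and 82.0 CPM in WT and 119, 108 and 108 CPM in *LC3b-/-* (log2 fold change 0.34, SE 0.13, adjusted p = 0.185). Every *LC3b-/-* library was above WT, but WT F1 came within a small margin of *LC3b-/-* F3 and M.

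*Txn2*, the mitochondrial thioredoxin, had 94.3, 101, 115 and 112 CPM in WT and 76.5, 75.1 and 94.5 CPM in *LC3b-/-* (log2 fold change -0.37, SE 0.13, adjusted p = 0.159). *LC3b-/-* F1 and F3 were below all WT libraries and *LC3b-/-* M touched the lowest of them, WT F1. The ratio of *Txn1* to *Txn2* counts within a library, which no scaling between libraries can move, was 0.608, 0.458, 0.333 and 0.521 in WT and 1.47, 0.871 and 0.809 in *LC3b-/-*. The groups did not overlap in this ratio, which was chosen after the values were seen and is given without a test. *Txnrd2*, the mitochondrial reductase, was level across the libraries, at 7.57 to 8.13 CPM in WT and 7.44 to 8.95 CPM in *LC3b-/-*.

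The glutaredoxins use glutathione to release proteins from mixed disulfides. Mitochondrial *Glrx2* had 21.7, 26.8, 24.9 and 23.5 CPM in WT and 17.9, 19.7 and 19.2 CPM in *LC3b-/-* (log2 fold change -0.36, SE 0.12, adjusted p = 0.143), with all *LC3b-/-* libraries below WT. Its transcripts share stretches of at least 100 bases at 95% identity or more with 22 other genes of the table. Together these hold 119271 counts against 4545 of *Glrx2*, so part of its reads may be uncertain. Cytosolic *Glrx* overlapped between genotypes, at 7.73 to 11.8 CPM in WT and 9.96 to 13.3 CPM in *LC3b-/-*.

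**Figure D3:**
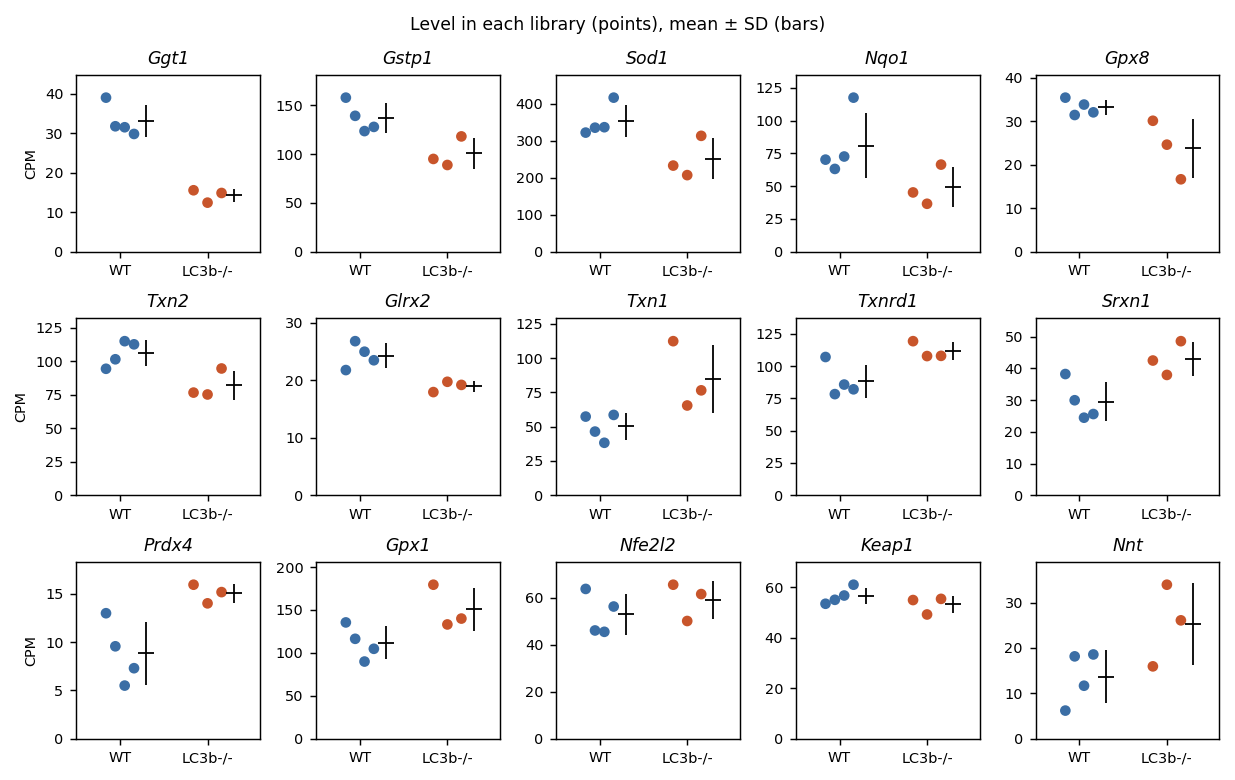
Level in each library, in CPM, of the 12 members with an unadjusted p under 0.05 and of *Nfe2l2*, *Keap1* and *Nnt*; blue points are the 4 WT libraries, orange points the 3 *LC3b-/-* libraries, and bars show mean ± SD. The groups lie fully apart in *Ggt1*, *Gstp1*, *Sod1*, *Gpx8*, *Glrx2*, *Txn1*, *Txnrd1* and *Prdx4*, and overlap in the others.

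*Ggt1* encodes gamma-glutamyltransferase, the cell surface enzyme that starts the breakdown of extracellular glutathione and so returns its amino acids to the cell. It lies on chromosome 10 (chr10:75387268-75422248 on GRCm39, plus strand; ENSMUSG00000006345). *Ggt1* had 39.0, 31.7, 31.5 and 29.8 CPM in WT and 15.5, 12.4 and 14.9 CPM in *LC3b-/-*. Mean levels were 33.0 ± 4.08 against 14.3 ± 1.65 CPM (mean ± SD, n = 4 and n = 3) (log2 fold change -1.21, SE 0.15, adjusted p = 0.0362). Every *LC3b-/-* library held less than every WT library, by more than the range of either group. The spread inside each group was a coefficient of variation of 12.4% in WT and 11.5% in *LC3b-/-*.

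The call of *Ggt1* was lost when any of 5 of the 7 libraries was left out. The adjusted p in edgeR was 0.123 without WT F2, 0.0943 without WT F3, 0.0791 without WT M1, 0.101 without *LC3b-/-* F1 and 0.167 without *LC3b-/-* F3, and it stayed under 0.05 without WT F1 (0.0412) or *LC3b-/-* M (0.0324). The log2 fold change lay between -1.28 and -1.12 in all 7 cases. DESeq2, the tool of the study, gave -1.23 with an adjusted p of 2.85e-10, and over 18 alternatives the adjusted p ran from 2.85e-10 to 0.265. The summed RPE markers were lower in the same 3 libraries, at 15570, 18465 and 31485 CPM beside 33773 to 52218 CPM in WT, and their part in the level of *Ggt1* was not tested.

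The other enzymes of glutathione turnover did not separate the genotypes. *Gclc* and *Gclm*, the catalytic and modifier subunits of glutamate-cysteine ligase, the rate-limiting step of glutathione synthesis, overlapped between genotypes. *Gclc* had 34.6 to 48.3 CPM in WT and 30.0 to 52.4 CPM in *LC3b-/-*. *Gclm* had 81.8 to 116 CPM in WT and 79.3 to 85.6 CPM in *LC3b-/-*. It shares a stretch of 125 bases with *Paip2*, which held 20634 counts against 18921 of *Gclm*. *Gss*, which completes glutathione, was 24.1 to 30.9 CPM in WT and 24.4 to 46.1 CPM in *LC3b-/-*, with *LC3b-/-* F1 highest. *Gsr*, the reductase that restores oxidized glutathione, had nearly the same mean in both genotypes, 35.8 ± 4.61 CPM in WT and 35.8 ± 4.05 CPM in *LC3b-/-* (SD, n = 4 and n = 3).

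Glutathione transferases couple glutathione to reactive compounds. *Gstp1*, the pi-class enzyme, had 158, 139, 124 and 128 CPM in WT and 95.1, 88.9 and 118 CPM in *LC3b-/-* (log2 fold change -0.45, SE 0.15, adjusted p = 0.140). All *LC3b-/-* libraries were below WT, with *LC3b-/-* M close to WT F3, and the difference did not pass the test. The neighbouring gene *Gstp2* shares 750 aligned bases with it and held 7.32% as many counts. With its counts added, the log2 fold change of *Gstp1* was -0.33. *Gstm1*, of the mu class, and *Mgst1*, the microsomal enzyme, overlapped between genotypes. *Gstm1* had 69.5 to 112 CPM in WT and 70.8 to 102 CPM in *LC3b-/-*, and *Mgst1* had 63.1 to 85.8 CPM in WT and 51.2 to 77.3 CPM in *LC3b-/-*.

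Neither regulator separated the genotypes. *Nfe2l2*, which encodes Nrf2, had 63.7, 46.0, 45.5 and 56.2 CPM in WT and 65.5, 50.1 and 61.5 CPM in *LC3b-/-* (log2 fold change 0.16, SE 0.16, adjusted p = 0.575). *Keap1* had 53.5, 55.1, 56.8 and 61.0 CPM in WT and 55.0, 49.2 and 55.4 CPM in *LC3b-/-* (log2 fold change -0.09, SE 0.10, adjusted p = 0.615). In both genes the libraries of the genotypes were mixed, and with single libraries left out the log2 fold change ran from 0.08 to 0.26 in *Nfe2l2* and from -0.12 to -0.05 in *Keap1*. These are messenger levels, while Nrf2 is known to be controlled mainly through the stability of its protein.

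Classical Nrf2 targets among the members lay on both sides of WT. *Nqo1*, the quinone reductase often used as a readout of Nrf2, had 70.2, 63.1, 72.6 and 117 CPM in WT and 45.2, 36.5 and 66.4 CPM in *LC3b-/-* (log2 fold change -0.71, SE 0.28, adjusted p = 0.185). *LC3b-/-* F1 and F3 were the lowest libraries and WT M1 the highest, but *LC3b-/-* M exceeded WT F2. With sex as a covariate the adjusted p of *Nqo1* was 0.0479, and over 18 alternatives it ran from 0.0479 to 0.439. *Txnrd1* and *Srxn1*, described above, were higher on average in *LC3b-/-*, and *Gclm* was lower on average. None of these 4 passed the test without covariates.

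*Nnt*, the mitochondrial transhydrogenase that makes NADPH from NADH, had the highest positive fold change of the members with all libraries, which was 0.58 on the log2 scale without *LC3b-/-* F3. It had 6.20, 18.1, 11.7 and 18.6 CPM in WT and 15.9, 33.9 and 26.1 CPM in *LC3b-/-* (log2 fold change 0.89, SE 0.41, adjusted p = 0.229). WT F1 was lowest and *LC3b-/-* F3 highest, and *LC3b-/-* F1 lay inside the WT range. The C57BL/6J strain is known for a deletion inside *Nnt*, and counts summed per gene do not show which exons were read. The level of this gene can differ with the strain background as well as with genotype, and these cannot be told apart here. *G6pdx*, glucose-6-phosphate dehydrogenase, the entry to the pentose phosphate pathway, was 57 to 71.0 CPM in WT and 60.3 to 83.1 CPM in *LC3b-/-*.

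The methionine sulfoxide reductases *Msra* and *Msrb1*, which repair oxidized methionine, overlapped between genotypes. *Msra* had 11.4 to 16.8 CPM in WT and 12.4 to 15.6 CPM in *LC3b-/-*, and *Msrb1* had 20.7 to 25.8 CPM in WT and 21.6 to 30.0 CPM in *LC3b-/-*.

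The metallothioneins, small cysteine-rich proteins that bind zinc and copper, are neighbours on chromosome 8. Their genes are known to be switched on by the zinc-sensing factor MTF-1 through metal response elements. These were searched with the broad letters TGCNCNC on both strands, where N is any base, so a match need not be such an element. These letters were present in 51.0% of all promoter windows, so a single match says little. *Mt2* held 6 matches in its window, 5 of them before the start site, and 6 or more were found in 0.225% of all windows. *Mt1* held 3, 1 of them before the start, and 3 or more were found in 7.10% of windows. These counts depend on the start site taken. Letters outside the windows were not searched, so the counts do not compare the promoters of the genes. The 250 bases before each start site are shown because the libraries fell in the same order in both genes, with capitals on the metal response letters, for *Mt1* (chr8:94178839-94179088, plus strand) and *Mt2* (chr8:94172368-94172617, plus strand).
Mt1: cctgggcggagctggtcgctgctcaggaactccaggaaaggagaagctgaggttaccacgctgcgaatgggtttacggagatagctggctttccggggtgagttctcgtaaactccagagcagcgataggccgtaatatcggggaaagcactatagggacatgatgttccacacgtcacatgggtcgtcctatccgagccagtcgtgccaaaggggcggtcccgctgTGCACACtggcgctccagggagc
Mt2: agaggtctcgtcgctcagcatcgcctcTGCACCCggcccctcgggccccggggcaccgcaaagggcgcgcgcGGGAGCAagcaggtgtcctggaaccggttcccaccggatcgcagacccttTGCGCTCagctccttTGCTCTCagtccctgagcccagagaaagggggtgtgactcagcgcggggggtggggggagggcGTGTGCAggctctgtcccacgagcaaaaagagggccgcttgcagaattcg
These windows are on GRCm38.p6, the antioxidant response match of *Mt2* is left in lower case, and a match here too is only a description.

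*Mt1* had 1120.0, 1047, 1169 and 1892 CPM in WT and 764, 573 and 1191 CPM in *LC3b-/-* (log2 fold change -0.63, SE 0.32, adjusted p = 0.274). *Mt2* had 747, 673, 855 and 1428 CPM in WT and 522, 391 and 924 CPM in *LC3b-/-* (log2 fold change -0.60, SE 0.38, adjusted p = 0.364). Both are given in full after their values were seen. The log2 fold change of *Mt1* was -0.40 without WT M1 and -0.97 without *LC3b-/-* M. That of *Mt2* was -0.31 without WT M1, -0.39 without *LC3b-/-* F3 and -1.02 without *LC3b-/-* M. The order of the 7 libraries was the same in both genes, with WT M1 highest, *LC3b-/-* M within the WT range and *LC3b-/-* F1 and F3 below all WT libraries. The ratio of *Mt2* to *Mt1* counts was narrow, at 0.643 to 0.775 over the 7 libraries. RPE markers were likewise highest in WT M1 and lowest in *LC3b-/-* F1 and F3, and their part in the level of the metallothioneins was not tested.

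**Figure D4:**
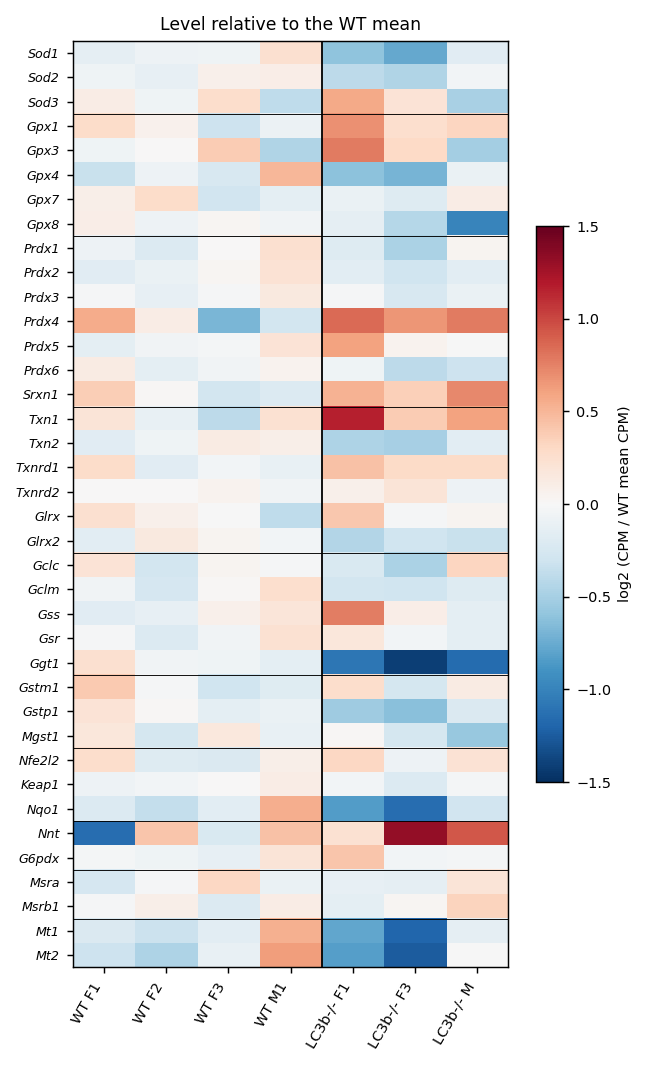
Level of the 38 members in each library relative to the WT mean, on a log2 scale from -1.5 (blue) to 1.5 (red); rows are members grouped by role and columns are the 7 libraries, with a vertical line between WT and *LC3b-/-*. *Ggt1* is blue in all 3 *LC3b-/-* libraries, while *Sod1*, *Gpx4*, *Nqo1*, *Mt1* and *Mt2* are bluest in *LC3b-/-* F1 and F3 and reddest in WT M1.

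Some libraries stood at the end of their group in many members. *LC3b-/-* F3 was the lowest *LC3b-/-* library in 27 members (71.1%), beside 35.7% of all genes, and WT M1 was the highest WT library in 18 members (47.4%), beside 27.5% of all genes. The male library was above every female library within each genotype in 10 members (26.3%, beside 15.6% of all genes): *Sod1*, *Sod2*, *Gpx4*, *Prdx1*, *Gclm*, *Keap1*, *Nqo1*, *Msrb1*, *Mt1* and *Mt2*. It was below every female library in 3, *Sod3*, *Gpx3* and *Txnrd2*, beside 11.0% of all genes. With 1 male per genotype this order is given as a description, without a test. The mouse names also hold a number of unstated meaning, which differs between the genotypes and, within *LC3b-/-*, between the male and the females. It cannot be told apart from genotype, or from sex within *LC3b-/-*. The RPE markers of the male libraries were also above those of every female of the same genotype, and their part in this order was not tested.

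The wider pathway was followed in a list of 128 further genes of peroxide removal, thioredoxin-fold proteins, glutathione transfer and turnover, Nrf2 control, NADPH supply and metal binding, of which 122 were tested. With edgeR 0 of these were called, 20 had an unadjusted p under 0.05 and were higher, and 17 were lower, where 13.5% and 10.6% of all genes did so. DESeq2 called 10 of them, 7 higher and 3 lower, where it called 9.41% of all genes it tested, 6.49% higher and 2.92% lower. The 7 higher were *Mgst2*, *Anpep*, *Gsto1*, *Txnip*, *Bach1*, *Maff* and *Chac1*, and the 3 lower were *Park7*, *Chac2* and *Mt3*. The median log2 fold change of the list was -0.02, beside 0.01 over all genes, and 55 genes were higher and 67 (54.9%) lower on average, beside 48.8% of all genes lower. Of the members, DESeq2 called 1, *Ggt1*.

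The 3 genes of this list with the smallest p on the higher side were *Mgst2*, *Anpep* and *Gsto1*. *Gsto1*, an omega-class transferase, had 239.7, 143, 6.37 and 245 CPM in WT and 6114, 2647 and 679.5 CPM in *LC3b-/-* (log2 fold change 4.31, SE 1.17, adjusted p = 0.106). *LC3b-/-* F1 was highest and WT F3 lowest, which is the order of the ocular surface markers at both ends (28716 and 14.3 CPM), and the part of those cells in the level of *Gsto1* was not tested. *Anpep*, the membrane aminopeptidase that cleaves the dipeptide left by gamma-glutamyltransferase, had 39.0, 30.1, 12.5 and 18.3 CPM in WT and 83.1, 61.3 and 66.0 CPM in *LC3b-/-* (log2 fold change 1.49, SE 0.37, adjusted p = 0.0967). It lay above WT in all *LC3b-/-* libraries, on the opposite side from *Ggt1*. *Mgst2*, a microsomal transferase, was at a very low level, 0.234, 0.290, 0.150 and 0.154 CPM in WT and 1.73, 1.05 and 0.827 CPM in *LC3b-/-* (log2 fold change 2.51, SE 0.47, adjusted p = 0.0842).

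On the lower side these were *Park7*, *Selenok* and *Selenos*. *Park7*, the redox-sensitive protein DJ-1, had 224, 266, 262 and 315 CPM in WT and 154, 138 and 173 CPM in *LC3b-/-* (log2 fold change -0.78, SE 0.16, adjusted p = 0.0898). *Selenok* and *Selenos*, selenoproteins of the endoplasmic reticulum, followed. *Selenok* had 107, 116, 112 and 115 CPM in WT and 83.6, 74.9 and 85.9 CPM in *LC3b-/-* (log2 fold change -0.47, SE 0.10, adjusted p = 0.0906). Its transcripts share stretches of at least 100 bases with 12 other genes of the table, some of them pseudogenes of *Selenok*. *Selenos* had 65.1, 70.4, 78.9 and 81.5 CPM in WT and 52.8, 43.7 and 57.4 CPM in *LC3b-/-* (log2 fold change -0.53, SE 0.14, adjusted p = 0.101). All 3 *LC3b-/-* libraries were below WT in these 3 genes. Catalase, *Cat*, which splits hydrogen peroxide in peroxisomes, and heme oxygenase 1, *Hmox1*, a stress-induced Nrf2 target, are added after their values were seen. *Cat* had 305, 277, 366 and 455 CPM in WT and 144, 172 and 299.8 CPM in *LC3b-/-* (log2 fold change -0.77, SE 0.30, adjusted p = 0.175), and *LC3b-/-* M reached into the WT range. *Hmox1* had 24.8, 17.2, 18.7 and 23.6 CPM in WT and 27.5, 30.5 and 47.8 CPM in *LC3b-/-* (log2 fold change 0.74, SE 0.23, adjusted p = 0.125), with all *LC3b-/-* libraries above WT and *LC3b-/-* M highest. Without *LC3b-/-* M the log2 fold change of *Hmox1* was 0.46.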

How the data were processed

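RPE messenger RNA (stranded poly(A) libraries, single reads) was measured in 7 mice, 4 WT and 3 *LC3b-/-*, grouped by the genotype label. Per the methods, the authors counted reads with Salmon against GENCODE vM26 transcripts (GRCm39), and combined transcripts per gene through tximeta. The deposited values were read as the authors' estimated counts, since they are whole numbers whose library totals differ; how they were rounded is not stated. Trimming and Salmon options are not given in the sources used here. All sample columns were used (0 unused). Symbols and coordinates (GRCm39) matched 51721 of 52740 identifiers.

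Counts were analysed with edgeR 4.0.16 in R 4.3.3: filterByExpr (16990 of 28835 genes with a count), TMM (factors 0.931 to 1.12), and the quasi-likelihood test without covariates, Benjamini-Hochberg adjusted over all genes tested. The common dispersion was 0.158, a biological coefficient of variation of 0.398, and pairs of libraries within a genotype gave a chi-square per degree of freedom of 66.4 to 219, so spread between mice and not counting error limits precision. Calls need an adjusted p under 0.05 and a fold of at least 1.5 (log2 0.585). DESeq2 1.42.0 and limma 3.58.1 (voom) were alternatives, beside other scaling, filters, sex, females only, mouse names as a block and leaving out libraries. The code was tested on simulated counts. Near-identical copies were sought by BLAST 2.17.0 with minima of 95% identity and 100 aligned bases, and figures were drawn with matplotlib 3.10.9 in Python 3.11.15.

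The members and lists were chosen with earlier results of these data known. Library values, fold change, SE and adjusted p are given for members called, with an unadjusted p under 0.05 or with groups that do not overlap, and always for *Nfe2l2*, *Keap1* and *Nnt*. Of the wider pathway list, genes called are named, otherwise the 3 smallest p on each side. No protein sequences were used.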

Additional observations from a re-analysis of the deposited data

Results flagged for a closer look

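Each of the 38 members was checked for a WT library that stands apart from the other 3, and 2 members had one. The gap of WT M1 to the next library was 0.846 of the whole WT range in *Sod1* and 0.856 in *Mt1*, above Dixon's 95% limit for 4 libraries. WT M1 was the high library in both. Chance alone gives such a gap in about 1 in 20 groups. Without WT M1 the log2 fold change was -0.40 for *Sod1* and -0.40 for *Mt1*.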

How the results depend on the processing

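Of the 38 members, 1 (*Ggt1*) was called by edgeR, and 1 also with DESeq2, voom, other size factors, library size alone, other filters and the adjusted p alone. With sex as a covariate 2 were called (*Ggt1* and *Nqo1*), with females only 0, and with single libraries left out 0 to 1. Without WT F2 and *LC3b-/-* F1 together, chosen after seeing the data because they held the most photoreceptor and ocular surface markers, 0 members and 2 of all genes were called. This fit also had fewer libraries, and the cause of the lost calls was not tested.

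Of the wider pathway list 0 genes were called by edgeR, 10 with DESeq2 and 3 with sex as a covariate. Of all genes 40 were called by edgeR, 1810 with DESeq2, 124 with voom, 78 without a filter on low counts, 197 with sex as a covariate, 96 with females only, and 11 (without *LC3b-/-* F3) to 485 (without *LC3b-/-* M) with single libraries left out. The causes were not tested.

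With the mouse name as a replicate block, 0 members, 0 genes of the wider list and 1 of all genes were called, and the names were not found to pair the libraries: deviations from the genotype means correlated at 0.146 (F1), 0.243 (F3) and -0.172 (males).

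Over the 18 alternatives that refit all genes, the median log2 fold change of the members stayed between -0.13 and -0.02, and 20 to 26 members were lower on average. Of the 26 fold changes given, 1 changed sign: *Glrx2*, at 0.0795 with the counts of 22 genes that share short repeats added. These hold 119271 counts against 4545 of *Glrx2*, so this sum says nothing of *Glrx2* itself, which stayed between -0.41 and -0.30 with single libraries left out. In all, 12 members changed sign in some setting, and apart from *Glrx2* these had log2 fold changes of at most 0.29 in size. Depth was not limiting, with at least 104 counts per member and library.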
